A study of Mus musculus with 9 samples.

Results

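The 10 genes described here encode the subunits of AMPA and NMDA receptors, the ionotropic glutamate receptors of excitatory synapses, in the striatum of mice with 2, 1 or 0 intact copies of *Shank3*. They were chosen by symbol: *Gria1*, *Gria2*, *Gria3* and *Gria4* for the AMPA receptor, and *Grin1*, *Grin2a*, *Grin2b*, *Grin2c*, *Grin2d* and *Grin3a* for the NMDA receptor. All 10 were among the 15464 genes of the table, and all 10 were among the 14239 genes tested. The striatum of 9 male C57BL/6J mice aged 10 to 12 weeks was sequenced, with 1 library per mouse. WT mice carried 2 intact *Shank3* alleles, HET mice 1 intact and 1 *Shank3B* allele, and KO mice the *Shank3B* allele on both chromosomes, with 3 mice each. The *Shank3B* allele targets part of the gene in every cell of the animal, and no cell type was separated, so that fewer cells of a type and less RNA per cell cannot be told apart.

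An AMPA receptor is a tetramer of GluA subunits that carries most of the fast excitatory current, and its calcium permeability depends on whether GluA2, the product of *Gria2*, is present and edited. An NMDA receptor needs the GluN1 subunit, encoded by *Grin1*, and combines it with GluN2 subunits, which set its kinetics and magnesium block, or with GluN3 subunits, which lower its calcium permeability. Shank3 is a scaffold of the postsynaptic density, to which both receptors are linked through other scaffold proteins. Striatal projection neurons receive their glutamate from cortex and thalamus.

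The pore loop distinguishes these subunits, and the stretch of coding sequence around the residue that governs calcium passage is shown for the 4 AMPA receptor genes and for the GluN1 and GluN2A genes. Each run has 60 bases of the GENCODE transcript on GRCm38, read 5′ to 3′ on the coding strand. The codon of that residue is in capitals: the Q/R site of the AMPA receptor genes, and the asparagine (N) site of the NMDA receptor genes.
Gria1: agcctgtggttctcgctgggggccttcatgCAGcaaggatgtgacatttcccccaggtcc
Gria2: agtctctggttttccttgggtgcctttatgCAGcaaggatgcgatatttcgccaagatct
Gria3: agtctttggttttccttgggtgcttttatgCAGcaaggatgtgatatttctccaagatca
Gria4: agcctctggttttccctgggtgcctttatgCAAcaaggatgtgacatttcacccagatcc
Grin1: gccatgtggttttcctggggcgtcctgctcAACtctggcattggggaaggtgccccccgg
Grin2a: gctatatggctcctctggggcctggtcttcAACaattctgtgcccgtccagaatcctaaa

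All 4 AMPA receptor genes carry a glutamine codon at this site in the genome. In *Gria2* it is known to be changed to an arginine codon in the RNA by the adenosine deaminase ADAR2, so that the genome does not show the residue most GluA2 subunits carry. *Gria2* and *Gria3* were the closest pair, with 55 of 60 bases alike, and *Grin1* and *Grin2a* shared 27. The codon is at chr11:57243094-57243096 in *Gria1*, chr3:80706911-80706913 in *Gria2*, chrX:41610265-41610267 in *Gria3* and chr9:4464137-4464139 in *Gria4*. In the NMDA receptor genes it is at chr2:25297386-25297388 in *Grin1* and chr16:9653561-9653563 in *Grin2a*. *Gria1* and *Gria3* are on the plus strand and the other 4 on the minus strand. The runs cross the intron between exons 11 and 12 in *Gria1*, *Gria2* and *Gria3*, between exons 12 and 13 in *Gria4* and between exons 14 and 15 in *Grin1*, while that of *Grin2a* lies within exon 10 (exon numbers of the transcripts used). The deposited values are sums over a gene, and editing of the RNA was not measured by them.

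All values are the deposited normalized counts per gene, in which a library's total follows the normalization, so that the depth in reads is unknown. HET replicate 3 and KO replicate 3 stood apart from the other libraries on the first principal component of all tested genes, which held 33.6% of the variance (33.8 and 34.2 for these libraries, −17.0 to 1.35 for the other 7). Results are therefore also given without them. *Shank3*, the targeted gene, had normalized counts of 7209, 8812 and 6043 in WT, 7575, 7098 and 8050 in HET and 10237, 10798 and 10578 in KO, each KO library above every other one. This gene-level sum cannot check the labels by a loss, because it does not separate the targeted exons from the rest. Defining markers of striatal projection neurons were present in every library, such as *Ppp1r1b* (DARPP-32) at 12449 to 31982. Markers of cortical projection neurons were present as well, with *Slc17a7*, the vesicular glutamate transporter of cortical neurons, at 26609 to 43336 and *Tbr1* at 2919 to 4379. Striatal and cortical transcripts were therefore both present in all 9 libraries, and presence of markers alone does not settle the label of striatum. The levels and shares below are those of the dissected tissue as a whole.

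The levels of the 10 genes spanned more than an order of magnitude. Per kilobase of merged exons, *Grin1* was highest, with 2289 ± 225 normalized counts per kb (SD, n = 9 libraries), followed by *Gria1* (2135 ± 208) and *Gria2* (1446 ± 112). *Gria3* (900 ± 54.5), *Grin2b* (590 ± 47.2), *Gria4* (558 ± 35.6) and *Grin2c* (434 ± 51.1) lay in the middle of the order. *Grin3a* (80.3 ± 11.2), *Grin2d* (64.7 ± 9.86) and *Grin2a* (31.9 ± 7.04) were lowest.

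Neighbours in this order were compared within libraries by an exact two-sided sign-flip permutation test, with the 9 comparisons adjusted together. The order was set by the means of the same 9 libraries, so the tests are no independent check of it. *Grin1* and *Gria1* did not differ beyond their spread (1.07-fold, *Grin1* higher in 6 of 9 libraries, adjusted p = 0.230), nor did *Grin2b* and *Gria4* (1.06-fold, *Grin2b* higher in 7 of 9 libraries, adjusted p = 0.230). The other 7 steps were apart, with adjusted p of 0.00586 for 6 of them and 0.0151 for *Grin3a* over *Grin2d*. The largest step on this scale separated *Grin2c* from *Grin3a*, at 5.42-fold, and it was 2.04-fold by coding length, where *Grin2b* over *Gria4* was larger (2.53-fold).

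**Figure D1:**
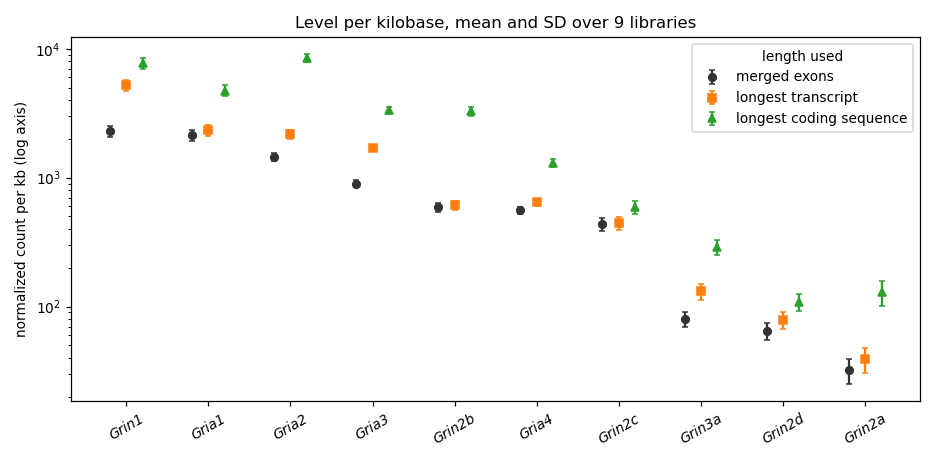
Level of each subunit gene, as normalized counts per kilobase on a log axis, with the mean and SD over 9 libraries and 3 measures of gene length. *Grin1*, *Gria1* and *Gria2* are the highest 3 under each length, and *Grin3a*, *Grin2d* and *Grin2a* the lowest 3.

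The order depended on the length used. *Grin1* and *Gria1*, alike per kb of merged exons, were apart with the longest transcript (2.23-fold, *Grin1* higher in 9 of 9 libraries, exact sign-flip test, adjusted p = 0.00502) and with the coding sequence (1.63-fold, 9 of 9, adjusted p = 0.00586). With the longest transcript, 8 of 10 genes kept their rank and *Gria4* and *Grin2b* changed places. With the longest coding sequence, 5 of 10 did: *Gria2* came first at 8487 per kb, and *Grin2a* (130) stood above *Grin2d* (109). *Gria2* (15548 bases of merged exons, 2649 of coding sequence) and *Grin2b* (24842 and 4446) have the longest exons relative to their coding sequence.

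Among the AMPA receptor genes, *Gria1* made up 42.3% ± 1.85 of the summed level per kb (SD, n = 9), *Gria2* 28.7% ± 1.22, *Gria3* 17.9% ± 0.922 and *Gria4* 11.1% ± 1.05. With the longest coding sequence *Gria2* held the largest share, at 47.5% ± 1.42, and *Gria1* 26.5% ± 1.41. GluA1 and GluA2 are the subunits best known from AMPA receptors of forebrain neurons, and *Gria1* and *Gria2* together were the larger part of the pool on both scales.

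Among the GluN2 genes, *Grin2b* was the most abundant, with 52.6% ± 2.22 of the summed level. *Grin2c*, best known from cerebellar granule cells and astrocytes, held 38.7% ± 2.80, *Grin2d* 5.80% ± 1.05 and *Grin2a* 2.87% ± 0.705. By coding length the shares were 79.9% ± 1.21 for *Grin2b*, 14.3% ± 1.41 for *Grin2c*, 3.18% ± 0.735 for *Grin2a* and 2.65% ± 0.474 for *Grin2d*. *Grin2a*, which encodes the GluN2A subunit of mature forebrain synapses, thus stood at or near the bottom of the order on each scale in these values. How much of this rests on the transcripts annotated for each gene was not tested.

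*Gria1*, on chr11:57011387-57330244, encodes GluA1, the subunit that activity drives to synapses. Its normalized counts were 14872, 14184 and 11653 in WT, 13552, 12039 and 11358 in HET, and 12681, 13870 and 11909 in KO. The genotypes overlapped, and replicate 3 was the lowest library in each of them. The log2 fold change (log2FC) was −0.14 in HET (standard error 0.12) and −0.08 in KO (standard error 0.12).

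*Gria2*, on chr3:80681450-80802835, encodes GluA2, the subunit that limits calcium entry. The libraries had 26156, 22254 and 20436 in WT, 22997, 20047 and 22651 in HET, and 22639, 22784 and 22382 in KO. The KO libraries had an SD of 203 and lay inside the WT range, where the SD was 2922. The log2FC was −0.06 in HET and −0.01 in KO, both with a standard error of 0.12.

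*Gria3*, on chrX:41400854-41678601, encodes GluA3. It had 9825, 8996 and 8518 in WT, 8035, 8512 and 8692 in HET, and 8741, 9051 and 9463 in KO. The HET and KO libraries did not overlap: the lowest KO library, 8741, was above the highest HET library, 8692. Libraries of these genotypes did not overlap for 4.45% of all tested genes, and *Gria3* was the only member of 10 with such a gap in any comparison. Its log2FC for KO against HET was 0.11 (standard error 0.089, 95% interval −0.088 to 0.31; exact permutation test, two-sided, p = 0.1, the smallest that 3 mice against 3 allow).

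*Gria4*, on chr9:4417896-4796234, encodes GluA4, known from fast-spiking interneurons. Its normalized counts were 3527, 3656 and 3720 in WT, 3219, 3850 and 3194 in HET, and 3403, 3445 and 3664 in KO. HET held both the highest and the lowest library. The log2FC was −0.09 in HET and −0.05 in KO (standard error 0.093).

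**Figure D2:**
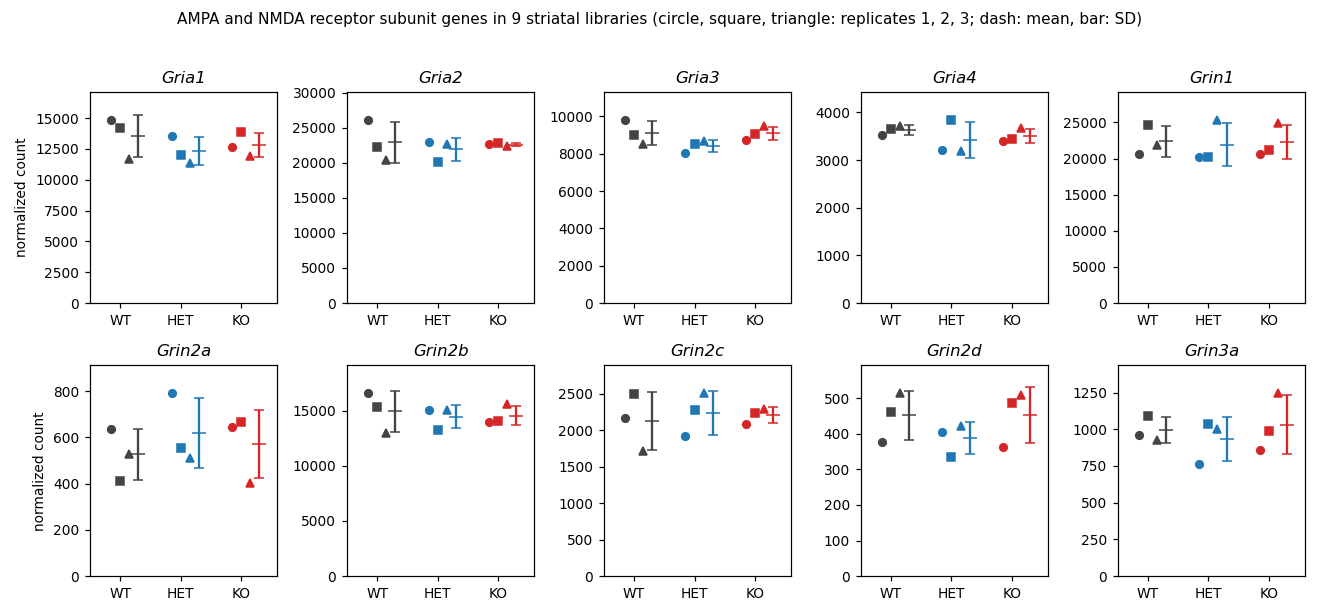
Normalized counts of the 10 subunit genes in each library (circle, square and triangle for replicates 1, 2 and 3), with the mean and SD of each genotype (n = 3 mice). The genotypes overlap in every panel except *Gria3* in HET against KO, and the axes start at 0.

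*Grin1*, on chr2:25291181-25319187, encodes the GluN1 subunit that every NMDA receptor needs. It had 20594, 24706 and 21827 in WT, 20223, 20208 and 25385 in HET, and 20654, 21243 and 24977 in KO. The highest library of HET and of KO was its replicate 3, the library that stood apart on the first principal component. The log2FC was −0.03 in HET and −0.0064 in KO (standard error 0.13), and without both of these libraries it was −0.14 and −0.091.

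*Grin2a*, on chr16:9567898-9995560, had the widest spread. The libraries had 636, 413 and 530 in WT, 793, 554 and 513 in HET, and 646, 667 and 401 in KO. HET replicate 1 was the highest of the 9 and KO replicate 3 the lowest. The log2FC was 0.23 in HET (95% interval −0.30 to 0.76) and 0.10 in KO (−0.43 to 0.64), with a standard error of 0.24 that 78.4% of tested genes undercut. Leaving out 1 library at a time gave 0.040 to 0.38 in HET, lowest without HET replicate 1.

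*Grin2b*, on chr6:135713233-136173511, encodes GluN2B, a subunit prominent in striatal projection neurons. Its normalized counts were 16620, 15299 and 12949 in WT, 15067, 13273 and 15014 in HET, and 14005, 14067 and 15556 in KO. WT held the highest and the lowest library. The log2FC was −0.04 in HET and −0.03 in KO (standard error 0.12).

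*Grin2c*, on chr11:115249169-115267243, had 2168, 2496 and 1710 in WT, 1920, 2268 and 2511 in HET, and 2087, 2235 and 2292 in KO. The log2FC was 0.08 in HET and 0.07 in KO (standard error 0.14), and neither held its sign when single libraries were left out. WT replicate 3 was the lowest library.

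*Grin2d*, on chr7:45831883-45878378, encodes GluN2D, which is known from interneurons. It had 378, 461 and 515 in WT, 404, 336 and 423 in HET, and 363, 487 and 509 in KO. HET was lower on average, but the genotypes overlapped. The log2FC was −0.21 in HET against WT (95% interval −0.59 to 0.16), 0.00072 in KO against WT and 0.22 in KO against HET (−0.16 to 0.59).

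*Grin3a*, on chr4:49661611-49845744, encodes GluN3A, which dampens calcium entry and is known best from juvenile brain. The libraries had 963, 1092 and 925 in WT, 765, 1034 and 1001 in HET, and 859, 987 and 1249 in KO. KO replicate 3 was the highest and HET replicate 1 the lowest. The log2FC was −0.10 in HET and 0.04 in KO (standard error 0.16).

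In limma with Benjamini-Hochberg adjustment, 0 of the 10 genes differed between genotypes. The smallest adjusted p was 0.999 in HET against WT, 0.999 in KO against WT and 1.00 in KO against HET, and 0 of 10 had an unadjusted p under 0.05 in any of them. Across all tested genes, 0% passed the adjusted threshold in each comparison. An unadjusted p under 0.05 was reached by 1.11% of genes in HET against WT, 0.822% in KO against WT and 1.31% in KO against HET. Each share was below the nominal level of that threshold, so few genes of any kind reached it. The count of 0 of 10 therefore does not set the members apart from other genes. Non-overlapping libraries, which for KO against HET only *Gria3* showed, were found for 4.45% of genes in HET against WT, 4.54% in KO against WT and 4.45% in KO against HET. Both mutant genotypes were compared with the same 3 WT libraries.

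**Figure D3:**
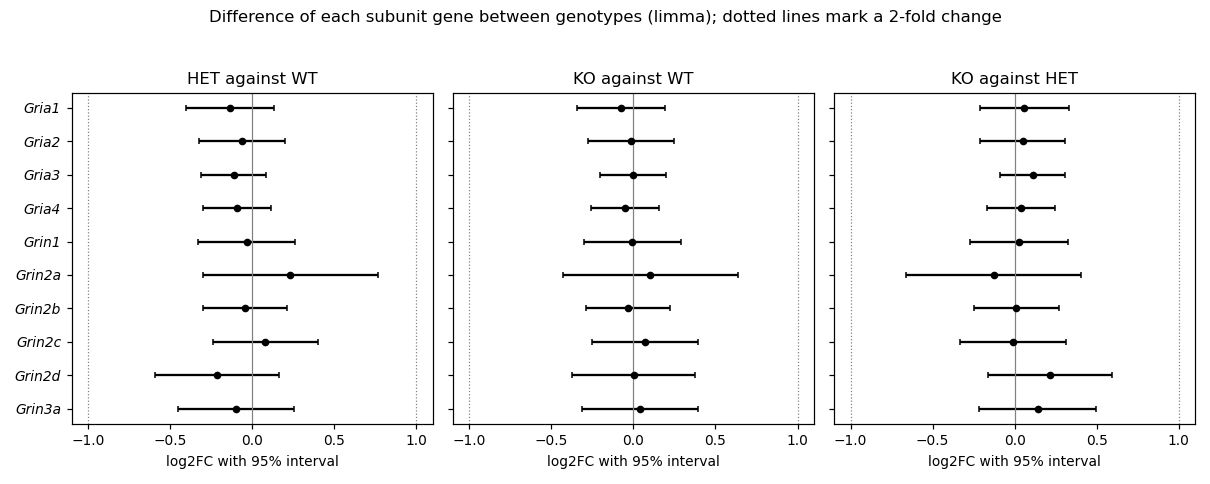
The log2FC of each subunit gene in HET against WT, KO against WT and KO against HET, with 95% intervals from limma (n = 3 mice a genotype). Every interval includes 0, and the intervals lie inside the dotted lines at a 2-fold change.

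In HET, 8 of 10 genes had a negative and 2 a positive log2FC, with a median of −0.08 against −0.0027 over all tested genes. In KO, 6 were negative and 4 positive, with a median of −0.0046 against 0.0047. KO against HET gave 8 positive and 2 negative, with a median of 0.04 against −0.00099.

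The widths of the intervals rest on the spread among libraries, and show how closely each difference was estimated rather than how closely a gene was measured. They are given here as a percent of the reference genotype. For *Gria3* in KO against WT the 95% interval ran from −13.0% to 14.5%, and for *Gria2* from −17.3% to 18.6%. For *Grin1* it ran from −18.9% to 22.3%. *Grin2a* was the least constrained, from −25.8% to 55.5% in KO against WT and from −18.9% to 69.9% in HET against WT.

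Ratios within a library do not depend on its size factor. The ratio of *Gria2* to the sum of the other AMPA receptor genes was 0.419, 0.373 and 0.389 in WT, 0.415, 0.372 and 0.446 in HET, and 0.413, 0.390 and 0.410 in KO, per kb of merged exons. WT and KO overlapped, and HET held the highest and the lowest value. The log2 difference was 0.06 in HET and 0.04 in KO.

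*Grin2a* relative to *Grin2b*, the ratio that rises as forebrain synapses mature, was 0.0530, 0.0374 and 0.0567 in WT, 0.0729, 0.0579 and 0.0473 in HET, and 0.0639, 0.0657 and 0.0357 in KO. Replicate 3 was the lowest library of both mutant genotypes. The log2 difference against WT was 0.28 in HET and 0.14 in KO (exact permutation tests, two-sided, p = 0.4 and p = 0.6). Without replicate 3 of each mutant genotype it was 0.43 in HET and 0.42 in KO. The 3 WT libraries, all kept, then no longer overlapped with the 2 left of either mutant genotype (exact permutation tests, p = 0.2 in each, adjusted p = 1). Leaving out WT replicate 2 made the difference smaller, 0.093 in HET and −0.045 in KO, and without HET replicate 1 it was 0.12 in HET.

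The level of a ratio depends on the length used, and the differences between genotypes of ratios of single genes do not. *Grin1* relative to the sum of GluN2 genes was 2.07 ± 0.274 in WT, 2.02 ± 0.151 in HET and 2.04 ± 0.122 in KO (SD, n = 3 each), and its geometric mean over all libraries was 2.04 with merged exons and 4.41 with the longest transcript. *Gria1* relative to *Gria2* was 1.52 ± 0.101, 1.45 ± 0.140 and 1.46 ± 0.0998. The AMPA receptor genes summed to 1.49 ± 0.164, 1.41 ± 0.179 and 1.45 ± 0.144 times the NMDA receptor genes. The lowest value of HET and of KO in this last ratio was again replicate 3 (1.21 and 1.28). Over 10 ratios and 3 comparisons, 0 of 30 had an adjusted p under 0.05 (all 1, exact permutation tests, where no raw p can fall under 0.1). The smallest raw p was 0.3, for *Grin2d* relative to *Grin2b* in KO against HET, with 0.0999 ± 0.00534 in HET and 0.116 ± 0.0170 in KO.

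**Figure D4:**
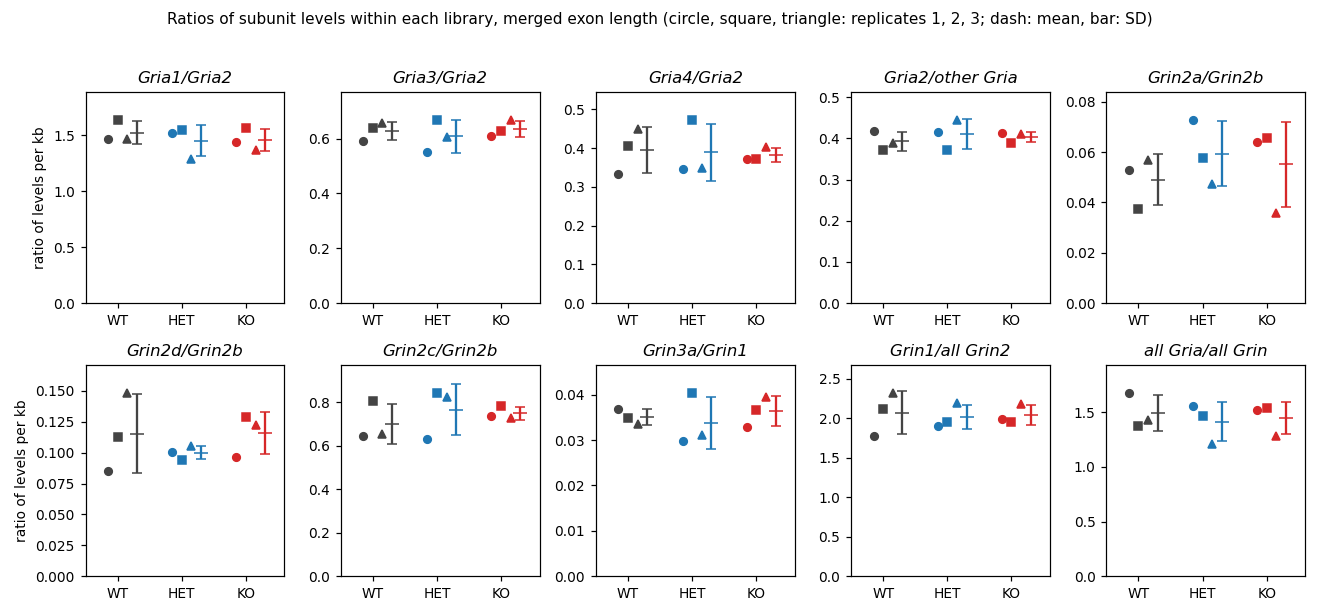
Ratios of levels per kilobase within each library, for 10 pairs or sums of subunit genes (circle, square and triangle for replicates 1, 2 and 3; dash and bar for mean and SD, n = 3 mice). The genotypes overlap in each panel, and the *Grin2a* to *Grin2b* ratio of replicate 3 is the lowest in HET and in KO.

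Relations among the subunit genes across mice are given for the largest absolute Pearson r. Over the 9 libraries, *Gria2* and *Grin2b* had a Pearson r of 0.85 (permutation p = 0.00361) and a Spearman rho of 0.57 (permutation p = 0.121). *Grin2a* and *Grin3a* had r = −0.87 (permutation p = 0.00236; rho = −0.80, permutation p = 0.0138), and *Grin1* and *Grin2a* r = −0.82 (permutation p = 0.00601; rho = −0.72, permutation p = 0.0369). Among 45 pairs, 0 passed after adjustment (permutation tests, adjusted p of r = 0.0812, 0.0812 and 0.0902, and of rho = 0.597, 0.311 and 0.415). By rank the largest was *Grin2c* with *Grin3a* (rho = 0.83, permutation p = 0.00827, adjusted p = 0.311; r = 0.61, permutation p = 0.0822). Without the 2 libraries farthest from the median of the first gene of a pair, r was 0.68 for *Gria2* and *Grin2b*, −0.66 for *Grin2a* and *Grin3a* and −0.83 for *Grin1* and *Grin2a*. The libraries share normalization and dissection.

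With the genotype means removed, r was 0.86 for *Gria2* with *Grin2b*, −0.89 for *Grin2a* with *Grin3a* and −0.84 for *Grin1* with *Grin2a*. Without HET replicate 3 and KO replicate 3 it was 0.95, −0.77 and −0.74. The genes most like the 5 members with the highest mean, over all 9 libraries, were *Skil* (r = 0.95) and *Kdm5b* (0.95) for *Gria2*, *Gna11* (0.97) and *Klhl29* (0.97) for *Grin1*, and *Nip7* (0.96) and *Kbtbd11* (0.93) for *Grin2b*. For *Gria1* they were *Scn9a* (0.95) and *Akap11* (0.95), and for *Gria3* *Ptprj* (0.97) and *Tmem136* (0.90). Each is the top of 14239 genes, and such a value carries no test.

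Marker lists of other cells moved across the same libraries. The score of a list is the median of the centred log2 values of its markers. The 10 striatal projection neuron markers had their lowest scores in WT replicate 3 (−0.51) and KO replicate 3 (−0.62), where the 9 cortical projection neuron markers had their highest (0.24 and 0.36). The summed level of the striatal list ran from 78617 to 155217 in WT, from 107669 to 138380 in HET and from 69770 to 115395 in KO. That of the cortical list ran from 44698 to 57944 in WT, 39766 to 54945 in HET and 44481 to 62789 in KO.

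Against the cortical score, *Gria1* had r = −0.69 (permutation p = 0.0457; rho = −0.72, permutation p = 0.0369) and *Grin2a* r = −0.75 (permutation p = 0.0201; rho = −0.80, permutation p = 0.0138). *Grin3a* had r = 0.70 (permutation p = 0.0326; rho = 0.62, permutation p = 0.0857), and *Gria2* r = −0.58 (permutation p = 0.0983; rho = −0.80, permutation p = 0.0138). *Gria4* had r = 0.66 (permutation p = 0.0550) and rho = 0.62 (permutation p = 0.0857). Against the striatal score the largest absolute r was 0.62, for *Gria1* (permutation p = 0.0818). The striatal and cortical scores had r = −0.80 with each other. Of 20 relations, the 10 genes with both scores, 0 passed after adjustment (permutation tests, smallest adjusted p = 0.275 for r and 0.138 for rho). Without WT replicate 3 and KO replicate 3, r against the cortical score was −0.58 for *Gria1*, −0.68 for *Grin2a*, 0.75 for *Grin3a*, −0.67 for *Gria2* and 0.62 for *Gria4*. The part of the marker lists in the differences between genotypes was not tested.

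The striatal markers were lower in KO than in WT in 10 of 10 cases, with a median log2FC of −0.31 (0 of 10 at an adjusted or unadjusted p under 0.05 in limma), while the cortical markers had a median of 0.03 and the 10 subunit genes −0.0046. Without KO replicate 3 the medians were −0.13 for the striatal markers (8 of 10 lower), −0.10 for the cortical markers and −0.06 for the subunit genes. Without WT replicate 2 they were −0.15, −0.039 and −0.013. Without WT replicate 3 they were −0.63, 0.15 and −0.043, and 8 of 10 striatal markers then had an unadjusted p under 0.05 (0 at an adjusted p under 0.05 in limma). In HET the medians were 0.04 for the striatal and −0.08 for the cortical list, and without WT replicate 3 they were −0.28 and 0.03. Of the markers of interneurons, astrocytes, oligodendrocyte precursors, oligodendrocytes and microglia, 0 passed an unadjusted p of 0.05 in any comparison. The 6 oligodendrocyte markers were nevertheless all higher in HET than in WT on average (median log2FC 0.33) and all lower in KO than in HET (median −0.31). In KO against WT 4 of them were positive and 2 negative (median 0.03). The genotypes overlapped in the score of this list. It was −0.30, −0.39 and 0.36 in WT, 0.13, 0.20 and 0.30 in HET, and 0.079, 0.20 and −0.54 in KO. WT replicate 3 was the highest of the 9 libraries and KO replicate 3 the lowest. Of 6 thalamic markers, *Prkcd* had an unadjusted p under 0.05 in KO (log2FC 0.38 against WT and 0.37 against HET, adjusted p = 0.999 and 1.00 in limma). It was 561 in KO replicate 2, against 396 and 356 in KO replicates 1 and 3. The thalamic list was split, with 3 positive and 3 negative in each of these comparisons (medians −0.0021 and 0.10). Of 6 choroid plexus markers, 3 were tested and 0 passed, and *Ttr* was between 0 and 26.6.

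**Figure D5:**
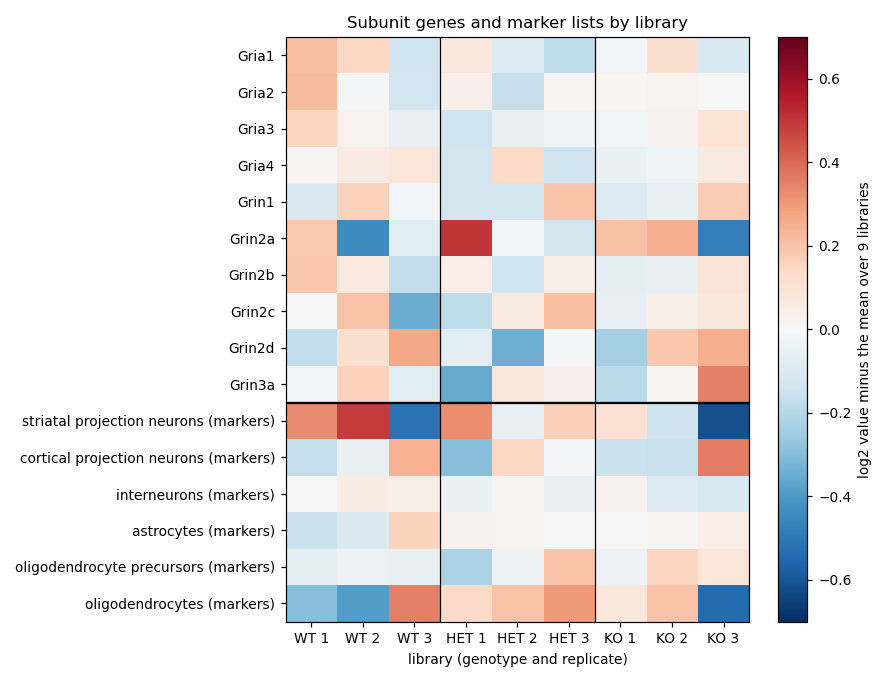
Centred log2 values of the 10 subunit genes (upper block) and the median centred log2 value of 6 marker lists (lower block) in 9 libraries, red above and blue below the mean over libraries. KO replicate 3 has low striatal and oligodendrocyte scores, a high cortical score, the lowest *Grin2a* and the highest *Grin3a*.

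Genes that build and move AMPA receptors were also examined: 29 auxiliary subunits and trafficking factors, such as the TARP (*Cacng*), cornichon (*Cnih*) and Shisa families, of which 29 were tested. In limma 0 of 29 had an adjusted or an unadjusted p under 0.05 in any comparison. In HET 10 were positive and 19 negative (median −0.07), in KO 17 and 12 (median 0.03), and in KO against HET 17 and 12 (median 0.05). The highest mean normalized counts, not divided by length, were those of *Nsf*, the ATPase that disassembles SNARE complexes and binds GluA2, *Nptxr*, a neuronal pentraxin receptor that clusters AMPA receptors, and *Olfm1*. *Nsf* was 52037 in HET replicate 3 and 48593 in KO replicate 3, against 20778 to 28808 in the other 7. *Cacng3*, encoding a TARP, had the smallest unadjusted p in KO, with a log2FC of −0.25 (adjusted p = 0.999 in limma).

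Of 22 NMDA receptor regulators, which include kinases, phosphatases, co-agonist transporters and scaffolding partners, 21 were tested (*Dao*, the D-amino acid oxidase, had 0 to 5.20 and was filtered out). In limma 0 of 21 had an adjusted or an unadjusted p under 0.05 in any comparison. In HET 10 were positive and 11 negative (median −0.04), in KO 10 and 11 (median −0.0093), and in KO against HET 14 and 7 (median 0.02). *Camk2a* and *Camk2b*, the CaMKII subunits that bind GluN2B, and *Ptpn5*, the striatum-enriched phosphatase STEP that acts on GluN2B, had the highest mean normalized counts. *Camk2a* was 132119 in HET replicate 3 and 136571 in KO replicate 3, against 80379 to 100713 in the other libraries. The genotypes did not overlap for 1 of 21 regulators in HET and 1 of 21 in KO, beside 4.45% and 4.54% of all tested genes. These were *Rasgrf1* in HET (12782, 14024 and 12901 in WT; 11458, 12167 and 12584 in HET) and *Nos1*, which is also an interneuron marker, in KO (2069, 2222 and 2039 in WT; 1754, 2033 and 1645 in KO).

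Of the 3 editing enzyme genes, *Adarb1* encodes the ADAR2 that edits the *Gria2* codon shown above. It had 7340, 6588 and 6593 in WT, 7105, 6401 and 8720 in HET, and 7091, 6545 and 8814 in KO. HET replicate 3 and KO replicate 3 were the highest of the 9 libraries. *Adar* lay between 6051 and 8166 and *Adarb2* between 364 and 553. Of these genes 0 of 3 had an adjusted or an unadjusted p under 0.05 in limma in any comparison, with medians of 0.03 in HET, 0.06 in KO and 0.03 in KO against HET.

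Relatives of these genes were measured as well. *Grin3b*, for GluN3B, was barely present, with 5.78 to 15.6 normalized counts. *Grid1*, for the delta receptor GluD1, lay between 2082 and 2906.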

How the data were processed

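Striatal RNA of 3 WT, 3 HET and 3 KO mice was sequenced (stranded mRNA libraries, paired-end reads). The authors estimated abundance with Salmon 0.9.1 on GRCm38 with GC bias correction, imported it per gene with tximport and normalized it in DESeq2 1.19.11 (R 3.6.0). The deposited signal is these normalized counts. They could not be resolved into whole reads, so the count test of the study was not repeated, and the depth and its counting error are unknown. 0 columns were left unused.

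Values were transformed as log2(value + 1), which understates changes of low genes. Of 15464 genes, the 14239 that reached 10 in 3 or more libraries were fitted in limma 3.58.1 (R 4.3.3) with trend, all 9 libraries and no covariate, with Benjamini-Hochberg adjustment over all genes at a threshold of 0.05. Ratios, neighbours in level and correlations had exact two-sided permutation tests. Levels were divided by lengths from GENCODE M21. The fit was tested on simulated data. The members, lists and tests were chosen with earlier results of these data known. The text names all members, their relatives *Grin3b* and *Grid1*, of each list the 3 genes with the highest mean and any at an unadjusted p under 0.05, the genes most alike, *Shank3* and defining markers. *Dao*, *Cacng3*, *Rasgrf1* and *Nos1*, and the libraries with high *Nsf*, *Camk2a* and *Adarb1*, were singled out after values were seen. Lists held AMPA receptor auxiliary genes, NMDA receptor regulators, editing enzymes and markers of 9 cell classes.

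Samples were grouped by label. The labels do not say what replicate numbers stand for. Deviations from genotype means correlated between HET and KO libraries of the same number (r of 0.52, 0.28 and 0.51), and by a rule of every r over 0.1 these were taken as paired. For WT they were 0.32, −0.014 and 0.0054 with HET and 0.24, −0.22 and 0.024 with KO. HET replicate 3 and KO replicate 3 stood apart together, which can raise every r between HET and KO after genotype means are removed. The rule therefore cannot show that mice were paired, and the main tests did not use a pairing. Alternatives were other filters, pseudocount 10, TMM rescaling (its published algorithm, written out in R), no trend, array weights, a replicate block, the compared genotypes alone, and leaving out libraries. Some items are not reported here.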

Additional observations from a re-analysis of the deposited data

How the results depend on the processing

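The members gave 0 tests with an unadjusted p under 0.05 in 540 tests over 18 other settings (smallest p 0.0554 in limma, *Grin2d* in KO against HET without KO replicate 1). These tests are refits of the same libraries and not independent. Leaving out a library of the third genotype, for example, does not change the log2FC between the others. With the replicate block the members still had 0 genes at an adjusted and 0 at an unadjusted p under 0.05 in each comparison. Their log2FC and the differences in the ratios could not change with it, because each replicate number is present in every genotype. With 3 mice a genotype and unknown depth, small changes were not detectable.

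Signs of small values changed. With array weights *Grin2c* was −0.040 in HET and −0.0018 in KO, *Grin2d* −0.058 in KO and *Grin3a* −0.088 in KO. With TMM rescaling *Grin2d* was −0.0011 in KO. Without HET replicate 3 and KO replicate 3 *Grin2c* was −0.0088 in HET, *Grin2d* −0.091 in KO and *Grin3a* −0.11 in KO, and the log2 ratio of *Gria2* to the other AMPA receptor genes was −0.00094 in HET and that of all AMPA to all NMDA receptor genes 0.026 in HET and 0.043 in KO. The causes were not tested.

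Leaving out 1 library at a time, the log2FC in HET ran from −0.24 to −0.066 for *Gria1*, −0.16 to −0.058 for *Gria3*, −0.18 to −0.046 for *Gria4*, 0.040 to 0.38 for *Grin2a*, −0.34 to −0.11 for *Grin2d*, −0.14 to 0.036 for *Gria2*, −0.14 to 0.041 for *Grin1*, −0.14 to 0.036 for *Grin2b*, −0.068 to 0.20 for *Grin2c* and −0.18 to 0.038 for *Grin3a*. In KO it ran from −0.18 to −0.0070 for *Gria1*, −0.085 to −0.032 for *Gria4*, −0.094 to 0.084 for *Gria2*, −0.050 to 0.053 for *Gria3*, −0.091 to 0.067 for *Grin1*, −0.059 to 0.34 for *Grin2a*, −0.13 to 0.045 for *Grin2b*, −0.079 to 0.19 for *Grin2c*, −0.12 to 0.15 for *Grin2d* and −0.11 to 0.16 for *Grin3a*. In KO against HET it ran from 0.078 to 0.14 for *Gria3* and 0.12 to 0.37 for *Grin2d*. The log2 ratios ran from 0.093 to 0.43 for *Grin2a* to *Grin2b* in HET, 0.0026 to 0.086 for *Gria2* to the others in KO, −0.00094 to 0.13 for *Gria2* to the others in HET, −0.14 to 0.053 and −0.12 to 0.072 for *Grin1* to the GluN2 genes in HET and KO, −0.045 to 0.42 for *Grin2a* to *Grin2b* in KO, and −0.15 to 0.026 and −0.099 to 0.046 for all AMPA to all NMDA receptor genes.

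For the lists, against 0 genes at an unadjusted p under 0.05, the replicate block gave 1 AMPA receptor auxiliary gene in HET and 1 in KO (*Cacng3* in both), and 1 NMDA receptor regulator in HET (*Slc6a9*) and 2 in KO against HET (*Rasgrf2* and *Lrp8*). Array weights gave 1 auxiliary gene in KO, TMM rescaling 1 regulator in KO against HET, and the fit without HET replicate 3 and KO replicate 3 1 regulator in HET and 1 in KO against HET (*Lrp8* in both). Leaving out 1 library gave 0 to 1 auxiliary gene in HET and KO and 0 to 2 in KO against HET, 0 to 1 regulator in each comparison, and 0 to 1 editing enzyme in HET and in KO against HET. The adjusted count was 0 throughout. With coding length, 5 of 10 members kept their rank, and with the longest transcript 8, and leaving out a library left 10 of 10 in place. Without HET replicate 3 and KO replicate 3 the centred r of *Grin2a* and *Grin3a* was −0.77. The marker lists without single libraries were added after the data were seen.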
